A study of Mus musculus with 12 samples.

Results

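A set of 9 retinoid genes was described across mouse olfactory epithelium: the binding proteins Crabp1 and Crabp2, the uptake receptor Stra6, the aldehyde dehydrogenases Aldh1a1, Aldh1a2, Aldh1a3 and Aldh1a7, the degrading enzyme Cyp26b1 and the receptor Rarb. They were taken as every probe set that the array's annotation gives one of these symbols or an older alias, which found 11 probe sets for the 9 genes, among 13628 genes compared. All 9 passed the filter on low signals. In RefSeq's table, Crabp1, Stra6 and Aldh1a2 lie on chromosome 9, Aldh1a1 and Aldh1a7 on chromosome 19, Crabp2 on chromosome 3, Aldh1a3 on chromosome 7, Cyp26b1 on chromosome 6 and Rarb on chromosome 14. The list was drawn up with results of these arrays known, and Crabp1 and Aldh1a7 were singled out for their lower signal under clodronate, so their values are given as a description with no test.

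The arrays held RNA of microdissected olfactory epithelium from wild-type male C57BL/6J mice 6 weeks old. Lip-C mice received liposomes loaded with clodronate, a drug that kills the phagocytes that take them up. Lip-O mice received empty liposomes. Both were given at 50 µl into the nose daily on consecutive days and at 200 µl into the tail vein on the first and the third of these days. Surgery fell on the second day and was either bilateral olfactory bulbectomy (OBX), which removes the target of the olfactory sensory neurons, or a sham operation. Tissue was taken 48 h after surgery. The 4 groups, Lip-C OBX, Lip-O OBX, Lip-C sham and Lip-O sham, had 3 arrays each. The injections reach both nose and blood, so neither route was separated. The titles call the samples biological replicates, and whether one sample pooled several mice is not stated, so a p-value here measures only how these samples spread.

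Retinol enters cells from its plasma carrier through Stra6, is oxidised to retinaldehyde and then, by the Aldh1a enzymes, to retinoic acid. Retinoic acid is bound in the cytosol by Crabp1, which is tied to its breakdown, and by Crabp2, which carries it to nuclear receptors such as Rarb, while Cyp26b1 degrades it. In the olfactory epithelium, retinoic acid bears on the renewal of sensory neurons from basal progenitors.

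Promoter sequence is shown for the genes on which the results turn: Crabp1 and Aldh1a7, Aldh1a1 as the closest relative of Aldh1a7, and Rarb, whose promoter is known to hold a retinoic acid response element. Each is the 120 bases before the RefSeq start on GRCm38.p6, read 5′ to 3′ along the gene. Capitals mark the response element in Rarb, the CCAAT box and the octamer in Aldh1a7 and Aldh1a1, and the GGGCGG boxes (GC boxes, on either strand) in Crabp1. The Rarb window lies at chr14:16575477-16575596 on the minus strand, that of Aldh1a7 at chr19:20727557-20727676 on the minus strand, that of Aldh1a1 at chr19:20601848-20601967 on the plus strand, and that of Crabp1 at chr9:54764628-54764747 on the plus strand.
Crabp1: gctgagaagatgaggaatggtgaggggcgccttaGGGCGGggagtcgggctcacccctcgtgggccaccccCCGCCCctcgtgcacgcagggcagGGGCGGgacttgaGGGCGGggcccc
Aldh1a7: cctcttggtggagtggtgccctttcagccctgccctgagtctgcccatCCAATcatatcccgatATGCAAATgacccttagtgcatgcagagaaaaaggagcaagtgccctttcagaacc
Aldh1a1: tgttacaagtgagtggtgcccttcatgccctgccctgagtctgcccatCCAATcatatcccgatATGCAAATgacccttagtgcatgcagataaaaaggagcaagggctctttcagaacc
Rarb: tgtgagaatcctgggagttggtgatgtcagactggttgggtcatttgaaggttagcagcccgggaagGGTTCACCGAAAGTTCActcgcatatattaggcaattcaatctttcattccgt

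RefSeq's table gave a promoter for 7 of the 9 genes, all but Crabp2 and Aldh1a3, and motifs were sought on both strands of the 250 bases before each start. The Rarb element, GGTTCA and AGTTCA with any 5 bases between them, begins 53 bases before the start and occurs in 2 of 32851 promoters (0.00609%). At the same spacing, AGGTCA repeated and AGTTCA repeated, held by 0.00913% and 0.0213% of promoters, matched none of the 7 genes. Aldh1a7 and Aldh1a1 share 111 of the 120 bases shown (92.5%), with one unbroken run of 65. Both hold the octamer ATGCAAAT, found in 526 promoters (1.6%), at 56 bases before the start, and CCAAT, found in 33.8% of promoters, at 72. Aldh1a7 holds a further CCAAT at 137. Of the other genes, Aldh1a2 holds the octamer at 84 and CCAAT at 36, and Stra6 holds CCAAT at 98 before a listed start. GC boxes, found in 32.7% of promoters, occur in Cyp26b1 and Stra6 as well as in Crabp1. The other start that RefSeq lists for Aldh1a1 lies elsewhere, and its window is 59.2% identical to that of Aldh1a7. A match is a description of the letters and shows no binding.

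Crabp1 and Aldh1a7 had lower signal in Lip-C than in Lip-O mice after both kinds of surgery, and on no array did the groups meet. Crabp1 had signals of 1552.9, 1767.7 and 1967.8 on the Lip-C OBX arrays, against 3376.3, 3211.0 and 2394.8 on the Lip-O OBX arrays. It had 1615.0, 1562.2 and 1560.5 on the Lip-C sham arrays, against 2622.3, 2413.5 and 2553.7 on the Lip-O sham arrays. All 6 Lip-C arrays lay below all 6 Lip-O arrays. On the log2 scale of signal plus 16, which understates changes of dim genes, Crabp1 differed by -0.75 ± 0.13 (SE) in OBX mice and by -0.67 ± 0.13 in sham mice, 1.68-fold and 1.60-fold lower in Lip-C. Its group means ran from Lip-O OBX (2994 ± 525, SD, n = 3) over Lip-O sham (2530 ± 106) and Lip-C OBX (1763 ± 207) to Lip-C sham (1579 ± 31.0). Both Lip-O groups overlapped each other, as did both Lip-C groups.

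Aldh1a7, a dehydrogenase that in mice has not been shown to serve retinoic acid synthesis, had 3313.0, 3158.2 and 2672.1 on the Lip-C OBX arrays, against 4411.3, 4499.8 and 4323.9 on the Lip-O OBX arrays. The sham arrays gave 2933.4, 3161.0 and 3118.9 for Lip-C, against 4833.1, 4646.8 and 4906.8 for Lip-O. Again no Lip-C array reached the lowest Lip-O array. Its group means ran from Lip-O sham (4796 ± 134) over Lip-O OBX (4412 ± 88.0) to Lip-C sham (3071 ± 121) and Lip-C OBX (3048 ± 334), of which only the last pair overlapped. The differences were -0.54 ± 0.08 in OBX mice and -0.64 ± 0.08 in sham mice on the log2 scale, 1.45-fold and 1.56-fold lower in Lip-C. Without Lip-C OBX replicate 3, the lowest of its group, the difference in OBX mice was -0.45. Within Lip-O mice, Aldh1a7 was lower on every OBX array than on every sham array, by -0.12 ± 0.08, while in Lip-C mice OBX and sham overlapped (-0.02 ± 0.08). The interaction of OBX and Lip-C was 0.10 ± 0.12 for Aldh1a7 and -0.08 ± 0.18 for Crabp1.

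**Figure D1:**
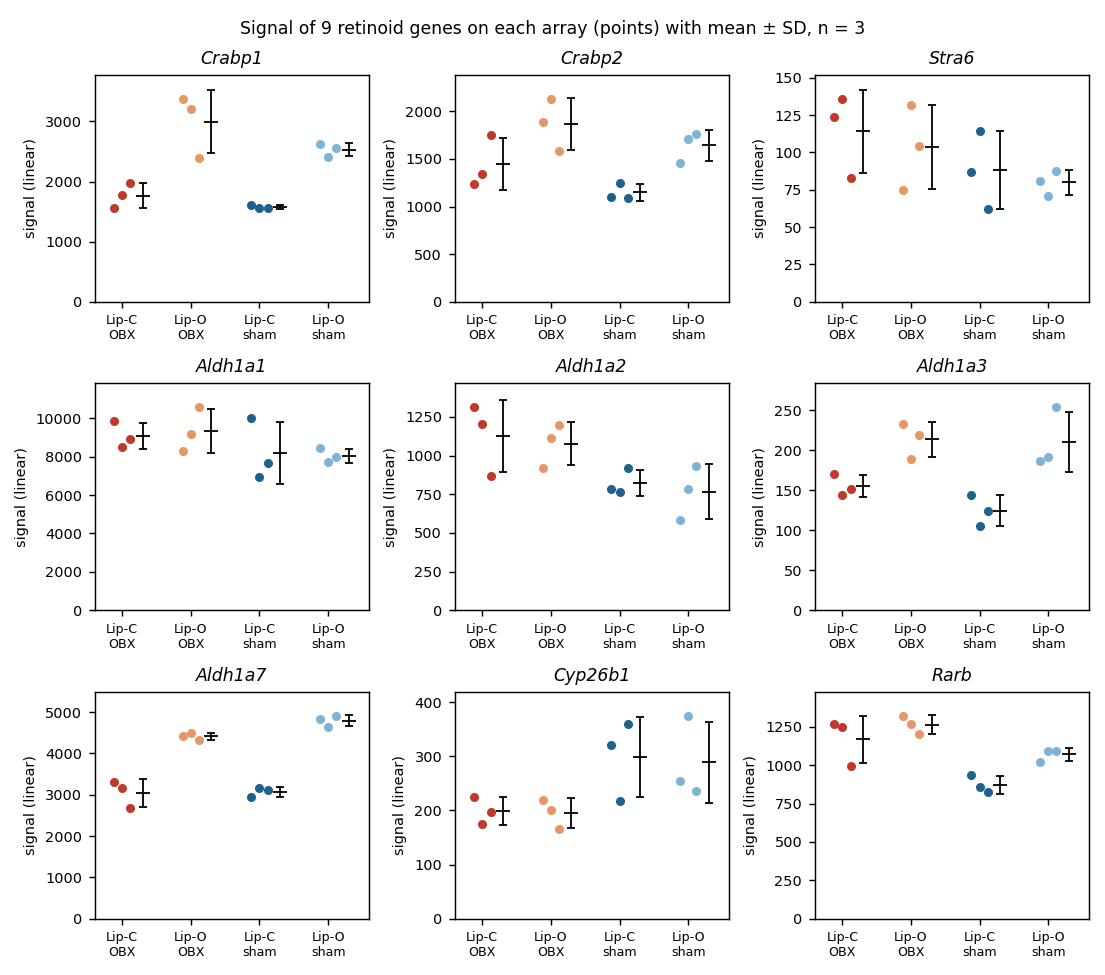
Signal of the 9 retinoid genes, one panel a gene, on the 12 arrays (points) in Lip-C OBX, Lip-O OBX, Lip-C sham and Lip-O sham epithelium, with the mean and SD of 3 arrays beside them, on linear axes that start at 0. Crabp1 and Aldh1a7 lie lower on all Lip-C arrays than on all Lip-O arrays, while Aldh1a1 overlaps between Lip-C and Lip-O after each surgery.

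Aldh1a1, which oxidises retinaldehyde and has the promoter letters shared with Aldh1a7, did not pass the test of Lip-C. Its mean signal was 9084 ± 691 in Lip-C OBX and 9347 ± 1151 in Lip-O OBX epithelium, and 8209 ± 1612 in Lip-C sham and 8044 ± 361 in Lip-O sham epithelium. Lip-C and Lip-O overlapped after each surgery, as did OBX and sham under each liposome. The Lip-C differences of Aldh1a1 were -0.04 (95% interval -0.34 to 0.26, limma adjusted p = 0.939) in OBX mice and 0.01 (-0.29 to 0.31, adjusted p = 0.97) in sham mice. Whether Aldh1a1 and Aldh1a7 differ in their response was not tested. Probe sequences were not used here, so cross-hybridisation between these 2 close relatives was not tested.

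Among the 7 genes other than Crabp1 and Aldh1a7, 1 fell and 0 rose in Lip-C against Lip-O sham mice, where 2.08% of all genes passed limma's test at an adjusted p under 0.05. The gene that fell was Aldh1a3, another enzyme that oxidises retinaldehyde to retinoic acid. Its signals were 144.4, 104.8 and 124.5 on the Lip-C sham arrays, against 187.1, 191.2 and 253.7 on the Lip-O sham arrays. These groups did not overlap, and the difference was -0.69 ± 0.14 on the log2 scale (1.61-fold lower, limma adjusted p = 0.0396). In OBX mice Aldh1a3 had 170.3, 143.7 and 152.1 under Lip-C, against 232.6, 189.5 and 218.6 under Lip-O, again with no overlap, at -0.42 ± 0.14 and an adjusted p of 0.241. Over both surgeries the difference was -0.55 ± 0.10 with an adjusted p of 0.0249, where 1.6% of all genes passed. That call was lost without Lip-C OBX replicate 2, Lip-C sham replicate 2 or 3, or Lip-O OBX replicate 1, at 0.0577 to 0.0637.

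The call for Aldh1a3 in sham mice depended on single arrays. Of 12 fits that each left out 1 array, 8 lost it, and the adjusted p over the 12 lay between 0.0398 and 0.115. The losses came without Lip-C OBX replicate 1 or 2, Lip-C sham replicate 2 or 3, Lip-O OBX replicate 3, or any one of the 3 Lip-O sham arrays. Its other probe sets were tested in a separate limma fit over probe sets, not genes. In that fit the main probe set had an adjusted p of 0.0266 in sham mice. One of the others was bright enough on 7 arrays only. It differed by -0.52 ± 0.29 in sham mice (adjusted p = 0.318) and by -0.05 in OBX mice (0.966). The remaining one was never above an array's 40th percentile. It gave -0.68 ± 0.27 and an adjusted p of 0.162 in sham mice, and -0.74 ± 0.27 and 0.337 in OBX mice.

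Crabp2 pointed the same way without passing the test. It had 1101.9, 1249.5 and 1094.6 on the Lip-C sham arrays, against 1458.3, 1714.4 and 1759.7 on the Lip-O sham arrays, with no overlap, at -0.51 ± 0.15 (adjusted p = 0.085). In OBX mice it had 1241.4, 1343.3 and 1753.0 under Lip-C, against 1891.2, 2132.0 and 1588.2 under Lip-O. Here the groups overlapped, at -0.37 ± 0.15 (adjusted p = 0.315). Over both surgeries Crabp2 differed by -0.44 ± 0.10 with an adjusted p of 0.0657. Leaving out each array in turn gave 0.0363 to 0.139, under 0.05 only without Lip-C OBX replicate 3 (0.0363) or Lip-O OBX replicate 3 (0.0436). Rarb was likewise lower on every Lip-C sham array than on every Lip-O sham array, by -0.29 ± 0.10, with an adjusted p of 0.13. In OBX mice the Rarb groups overlapped, at -0.12 ± 0.10 (limma adjusted p = 0.664). Over both surgeries Rarb differed by -0.21 ± 0.07 (limma adjusted p = 0.171).

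In Lip-C against Lip-O OBX mice, 0 of the 7 genes passed the test, where 0.345% of all genes passed. By limma, 2 of them, Crabp2 and Aldh1a3, had an unadjusted p under 0.05, as had 1729 of the 13628 genes compared. Counting all 9 genes, 5 were lower on every Lip-C array than on every Lip-O array in sham mice, where 13.4% of all genes were, and 3 in OBX mice, where 7.81% were. As Crabp1 and Aldh1a7 were chosen on this contrast, nothing is read from these 2 counts. The median difference over the 9 genes was -0.12 in OBX mice and -0.29 in sham mice, against 0.00 over all genes in both. Without Crabp1 and Aldh1a7, the median over the other 7 genes was -0.04 in OBX mice and 0.01 in sham mice. Stra6, Aldh1a2 and Cyp26b1 differed by 0.02 to 0.13 between Lip-C and Lip-O, with adjusted p of 0.752 or more.

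**Figure D2:**
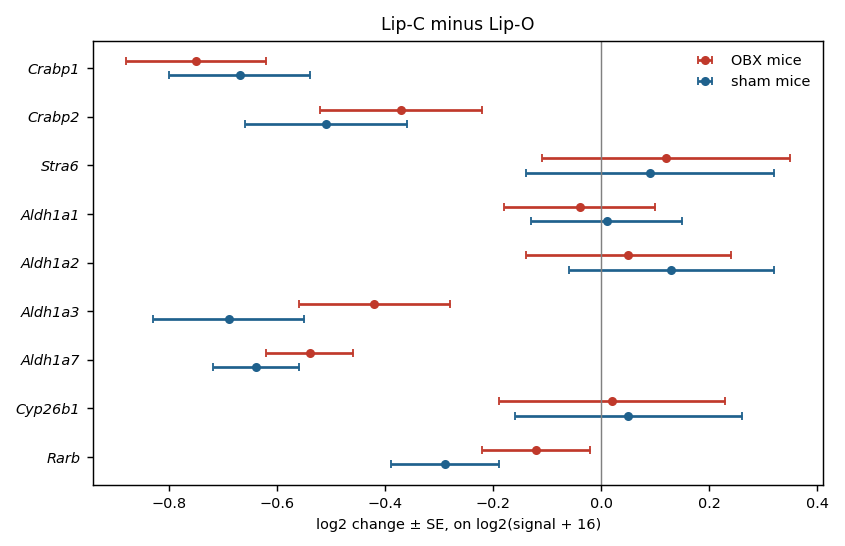
Lip-C minus Lip-O difference of each retinoid gene on the log2(signal + 16) scale, with its SE, in OBX mice (red) and sham mice (blue). Crabp1, Crabp2, Aldh1a3 and Aldh1a7 lie between -0.37 and -0.75, while Stra6, Aldh1a1, Aldh1a2 and Cyp26b1 lie near 0.

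Most marker genes of neuronal precursors had lower signal under Lip-C, as Crabp1 and Aldh1a7 had. Of 17 measured genes of neuronal precursors, 6 fell under Lip-C in OBX mice, where 0.345% of all genes passed, and 6 in sham mice, where 2.08% passed. This list holds genes already known to be lower on these arrays, so its direction is not independent evidence. The summed signal of the list was 20650 to 23432 in Lip-C OBX and 26013 to 31286 in Lip-O OBX epithelium, and 18820 to 21371 in Lip-C sham and 24143 to 25039 in Lip-O sham epithelium. Neurog1, a proneural factor of these precursors, averaged 123 ± 11.1 in Lip-C OBX and 368 ± 62.1 in Lip-O OBX epithelium. In bulk tissue, fewer cells of a type and less RNA per cell cannot be told apart, and the part of the precursors in the Crabp1 and Aldh1a7 results was not tested.

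Of 15 genes of sustentacular cells, the supporting cells of the epithelium, 0 passed in OBX mice and 1, Sox2, fell in sham mice. Their summed signal was 136234 to 142628 in Lip-C OBX and 137076 to 152234 in Lip-O OBX epithelium, and 119025 to 121516 in Lip-C sham and 121650 to 131952 in Lip-O sham epithelium. Cyp2g1, which defines these cells, averaged 16579 ± 701 in Lip-C OBX and 16207 ± 1164 in Lip-O OBX epithelium, and Omp, which defines mature sensory neurons, 12330 ± 1192 and 8610 ± 2548, so the labelled tissue carried its markers. Of 15 macrophage genes, 0 passed in OBX mice and 2, Csf1r and Aif1, fell in sham mice. Over all genes, 0.345% passed in OBX mice and 2.08% in sham mice. Csf1r, the macrophage growth factor receptor, averaged 2277 ± 441 in Lip-C OBX and 2781 ± 619 in Lip-O OBX epithelium, and 1331 ± 134 in Lip-C sham and 2383 ± 185 in Lip-O sham epithelium.

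Fibroblast genes leaned lower in Lip-C sham mice without passing the test. None of 12 passed the test in either Lip-C comparison, but in sham mice 0 of the 12 had a positive difference, with a median of -0.44, and in OBX mice 9 had, with a median of 0.27. The summed signal of the list was 29580 to 35471 in Lip-C sham and 40778 to 67526 in Lip-O sham epithelium, with no overlap. Col1a2, a collagen chain that defines these cells, averaged 6307 ± 1567 in Lip-C sham and 15134 ± 4933 in Lip-O sham epithelium (-1.23 ± 0.32, adjusted p = 0.0689). The part of fibroblasts in the Lip-C sham differences of Aldh1a3, Crabp2 and Rarb was not tested.

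The genes most like Crabp1 over the 12 arrays were Tox, Grp, Neurog1, Hes6 and Mfng, with Pearson r of 0.957, 0.95, 0.947, 0.938 and 0.931 across 13619 genes. These values include the differences between the 4 group means. For deviations from the group means, r with Crabp1 was 0.866 for Tox, 0.517 for Grp, 0.489 for Hes6, 0.385 for Neurog1 and 0.241 for Mfng. Tox, a nuclear factor, averaged 156 ± 33.9 in Lip-C OBX and 249 ± 54.5 in Lip-O OBX epithelium, and 129 ± 9.62 in Lip-C sham and 201 ± 18.5 in Lip-O sham epithelium. Of the other retinoid genes, Crabp2 was most like Crabp1, at 0.883 over arrays and 0.669 for deviations. Crabp1 and Aldh1a7 correlated at 0.816 over arrays but at -0.332 for deviations.

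The genes most like Aldh1a7 were Rln1, Scg2, Nmb, Cep152 and Neurod1, with r of 0.93, 0.915, 0.906, 0.906 and 0.901. For deviations from group means, r was 0.748 for Cep152, 0.61 for Rln1, 0.556 for Scg2, 0.034 for Nmb and -0.042 for Neurod1. Scg2, a granin of secretory vesicles, averaged 164 ± 38.8 in Lip-C OBX and 425 ± 31.8 in Lip-O OBX epithelium. These correlations describe 12 arrays that share groups and scaling, and carry no p.

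**Figure D3:**
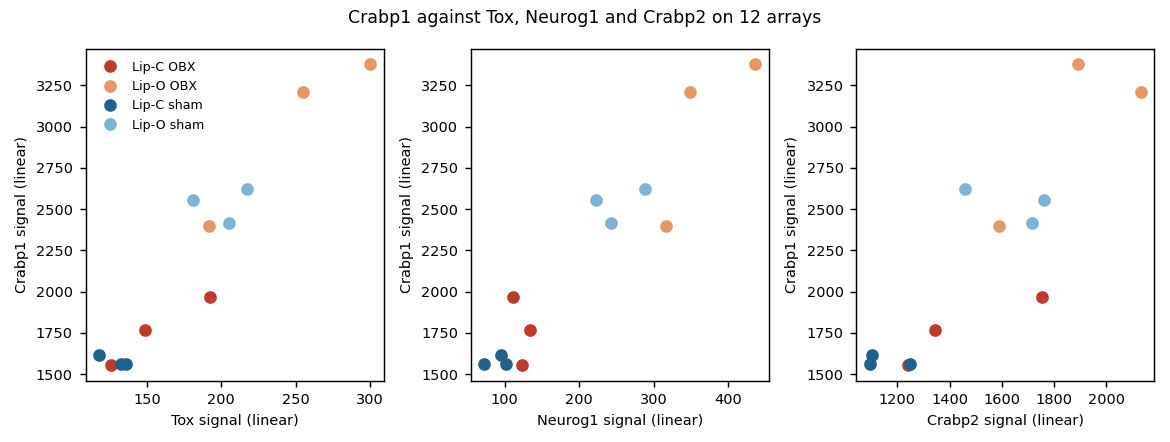
Crabp1 signal against the signals of Tox, Neurog1 and Crabp2 on the 12 arrays, on linear axes, coloured by group. The 6 Lip-C arrays reach a Crabp1 signal of at most 1967.8 and the 6 Lip-O arrays start at 2394.8.

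Over both liposomes, a comparison added after seeing the data, 2 of the 7 genes rose and 1 fell, where 32.7% of all genes passed. These were Rarb, Aldh1a2 and Cyp26b1, of which only Rarb also passed under a single liposome, in Lip-C mice. In OBX against sham Lip-C mice, 1 of the 7 genes rose and 0 fell, where 19.1% of all genes passed. The gene that rose was Rarb, the receptor whose promoter is shown above. It had 1266.2, 1249.3 and 992.9 on the Lip-C OBX arrays, against 934.5, 856.0 and 823.8 on the Lip-C sham arrays. The groups did not overlap, and the change was 0.41 ± 0.10 on the log2 scale (1.33-fold, limma adjusted p = 0.0206). This call was lost without Lip-C OBX replicate 1 (0.0818) or 2 (0.0774) and without Lip-C sham replicate 2 (0.0643) or 3 (0.0698).

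In OBX against sham Lip-O mice, 0 of the 7 genes passed, where 19.6% of all genes passed. Of the 7, 3 had an unadjusted limma p under 0.05, as had 4619 of the 13628 genes compared. Rarb had 1321.0, 1269.5 and 1201.7 on the Lip-O OBX arrays, against 1023.0, 1090.9 and 1095.3 on the Lip-O sham arrays. The groups did not overlap, at 0.24 ± 0.10 and an adjusted p of 0.121. Leaving out each array in turn gave 0.0493 (without Lip-C OBX replicate 3) to 0.281. Over both liposomes, Rarb rose by 0.32 ± 0.07 (adjusted p = 0.00635), where 32.7% of all genes passed, and stayed past the threshold without each array in turn (0.00116 to 0.0183). The interaction for Rarb was 0.17 ± 0.14 (adjusted p = 0.552).

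Over both liposomes, Aldh1a2 rose and Cyp26b1 fell as well. Aldh1a2, the main maker of retinoic acid in the early mouse embryo, had 1312.1, 1203.1 and 867.5 in Lip-C OBX against 786.7, 764.2 and 920.8 in Lip-C sham epithelium. In Lip-O mice it had 921.9, 1112.8 and 1195.8 after OBX, against 580.2, 782.9 and 933.2 after sham surgery. Both pairs of groups overlapped. The change was 0.43 ± 0.19 in Lip-C mice (adjusted p = 0.139), 0.50 ± 0.19 in Lip-O mice (0.0926) and 0.47 ± 0.14 over both (0.0248). The last was lost in 5 of 12 fits that left out 1 array, with an adjusted p of up to 0.06, namely without Lip-C OBX replicate 1 or 2, Lip-C sham replicate 2, or Lip-O OBX replicate 2 or 3. Without Lip-C OBX replicate 3, the change in Lip-C mice was 0.60 with an adjusted p of 0.0452, and without other arrays the adjusted p was up to 0.37.

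Cyp26b1 had 225.0, 174.2 and 197.2 in Lip-C OBX against 320.2, 216.7 and 359.6 in Lip-C sham epithelium. In Lip-O mice it had 219.6, 201.4 and 165.2 after OBX, against 255.0, 374.5 and 236.5 after sham surgery. The groups overlapped in Lip-C mice and not in Lip-O mice. The change was -0.53 ± 0.21 in Lip-C mice (adjusted p = 0.095), -0.51 ± 0.21 in Lip-O mice (0.11) and -0.52 ± 0.15 over both (0.0209), the last at 0.0513 without Lip-C OBX replicate 2. Without Lip-C sham replicate 2, the change in Lip-C mice was -0.73 with an adjusted p of 0.0497, and without other arrays the adjusted p was up to 0.27.

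The remaining genes did not pass after OBX. Crabp1 differed between OBX and sham by 0.15 ± 0.13 in Lip-C mice and by 0.23 ± 0.13 in Lip-O mice. Stra6 averaged 114 ± 27.9 in Lip-C OBX and 87.9 ± 26.2 in Lip-C sham epithelium, and 104 ± 28.3 in Lip-O OBX and 79.9 ± 8.27 in Lip-O sham epithelium (adjusted p = 0.324 and 0.397). The median change over the 9 genes was 0.29 in Lip-C and 0.21 in Lip-O mice, against 0.04 and 0.05 over all genes. Of the 9 genes, 1 was higher on every OBX array in Lip-C mice, and none was lower, where 40.2% of all genes did not overlap, and in Lip-O mice 1 was higher and 2 were lower, where 37.7% did not overlap. No gene of the 7, and 0 of all genes (0%), passed the test of the interaction by limma, although 2403 of all genes had an unadjusted p under 0.05.

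**Figure D4:**
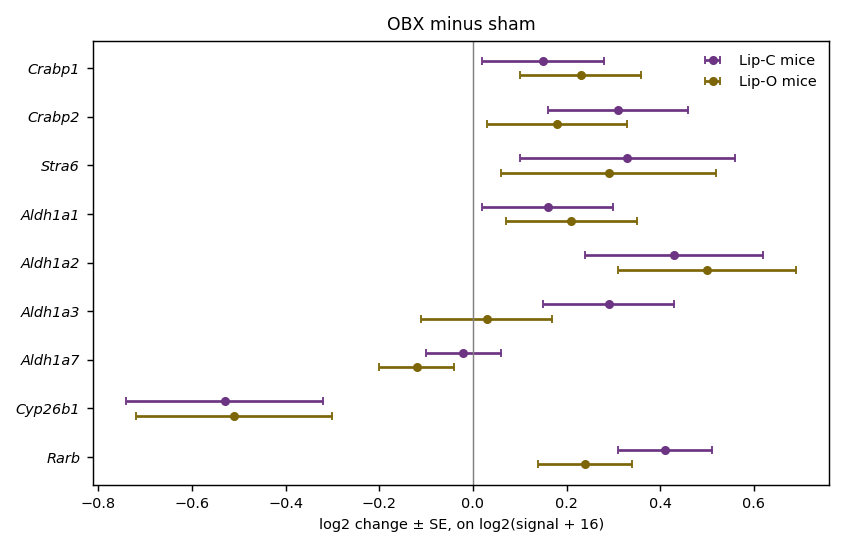
OBX minus sham change of each retinoid gene on the log2(signal + 16) scale, with its SE, in Lip-C mice (purple) and Lip-O mice (brown). Rarb and Aldh1a2 lie between 0.24 and 0.50, and Cyp26b1 at -0.53 and -0.51.

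Marker genes of several cell types moved with OBX, where 19.1% of all genes passed in Lip-C mice and 19.6% in Lip-O mice. Of 12 fibroblast genes, 9 rose in OBX against sham Lip-C mice and 1 in Lip-O mice. Their summed signal was 45870 to 72392 in Lip-C OBX and 29580 to 35471 in Lip-C sham epithelium, and 41054 to 64640 in Lip-O OBX and 40778 to 67526 in Lip-O sham epithelium. Of 15 macrophage genes, 7 rose in Lip-C and 4 in Lip-O mice. Mature sensory neuron genes fell, 8 of 13 in Lip-C and 11 of 13 in Lip-O mice. Of 15 sustentacular genes, 4 rose in Lip-C and 6 in Lip-O mice, and of 13 Bowman gland genes 2 and 3. Of 7 ensheathing and Schwann cell genes, 3 rose in Lip-C and 3 in Lip-O mice. Of 17 precursor genes, 2 rose and 1 fell in Lip-C mice, and 6 rose in Lip-O mice. The part of these cell types in the changes of Rarb, Aldh1a2 and Cyp26b1 was not tested.

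Beyond the 9 genes, 55 of 69 retinoid pathway genes on the array were bright enough to test. Under Lip-C, 1 rose in OBX mice (Cyp2s1, a cytochrome P450, by 0.56) and 1 in sham mice (Dgat1, which can esterify retinol, by 0.49), and none fell in either. That was 1.82% of the 55 in each comparison, against 0.345% of all genes in OBX mice and 2.08% in sham mice. The medians of 0.03 and -0.00 lay at those of all genes. After OBX, 8 rose and 2 fell in Lip-C mice (18.2%, against 19.1% of all genes), and 15 rose and 2 fell in Lip-O mice (30.9%, against 19.6%). The median change of the 55 genes was 0.22 in both, against 0.04 and 0.05 over all genes.

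By role, the called pathway genes after OBX were spread over several lists. Of 6 uptake and transport genes, Lrp2, a receptor that takes up carrier-bound retinol, rose by 0.47 in Lip-C and by 0.85 in Lip-O mice. Of 16 genes that interconvert retinol and retinaldehyde, Dhrs3, which reduces retinaldehyde, rose by 0.37 and 0.43, and Rdh10, which makes it, by 0.44 in Lip-C mice. Of 11 receptors and cofactors, Fabp5, a fatty acid binding protein that also carries retinoic acid, rose by 0.84 in Lip-C and 0.60 in Lip-O mice, and Rarg, another retinoic acid receptor, fell by 0.56 in Lip-O mice. Also called in Lip-C mice were Rlbp1 (0.97), Adh5 (-0.23) and Ncoa1 (-0.26). In Lip-O mice Scarb1 (0.72), Dgat1 (0.31), Ces1d (0.31), Rdh9 (0.95), Dhrs4 (0.63), Nrip1 (0.47) and Rdh14 (-0.46) were called as well.

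Of 16 retinoic acid target genes, 4 rose and 0 fell in OBX against sham Lip-C mice, and 5 rose and 0 fell in Lip-O mice. These are 25.0% and 31.2% of the list, against 19.1% and 19.6% of all genes. Tgm2, a transglutaminase, averaged 2994 ± 656 in Lip-C OBX and 1229 ± 413 in Lip-C sham epithelium, a change of 1.30 ± 0.24 (adjusted p = 0.00829). In Lip-O mice Tgm2 averaged 2077 ± 186 after OBX and 1748 ± 427 after sham surgery (adjusted p = 0.469). Gata6, a transcription factor, averaged 599 ± 52.2 in Lip-O OBX and 322 ± 16 in Lip-O sham epithelium (adjusted p = 0.00332). The others called were Nr2f2, Meis2 and Dhrs3 in Lip-C mice and Rarres2, Rai1, Pdk4 and Dhrs3 in Lip-O mice.

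Ttr, the plasma partner of retinol's carrier protein, passed the filter on low signals only through the Lip-O OBX arrays, so its call in Lip-O mice followed from the filter and supports nothing. Without it, 14 of 54 pathway genes rose and 2 fell in OBX against sham Lip-O mice (29.6%). Ttr averaged 215 ± 140 in Lip-O OBX and 18.9 ± 12.6 in Lip-O sham epithelium. The summed signal of 6 liver transcripts, Ttr itself among them, was 496 to 2298 against 162 to 223. Of these 6, 4 (Ttr, Ahsg, Apoa1 and Fgb) had a mean over all arrays under the 40th percentile. Alb, another of them, averaged 621 ± 523 in Lip-O OBX and 38.9 ± 19.2 in Lip-O sham epithelium. Rbp4, Adh7, Rxra and Rara were measured, and of these only Rxra passed, at 0.25 in OBX against sham Lip-O mice. Lrat and Cyp26a1 were too dim to test.

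**Figure D5:**
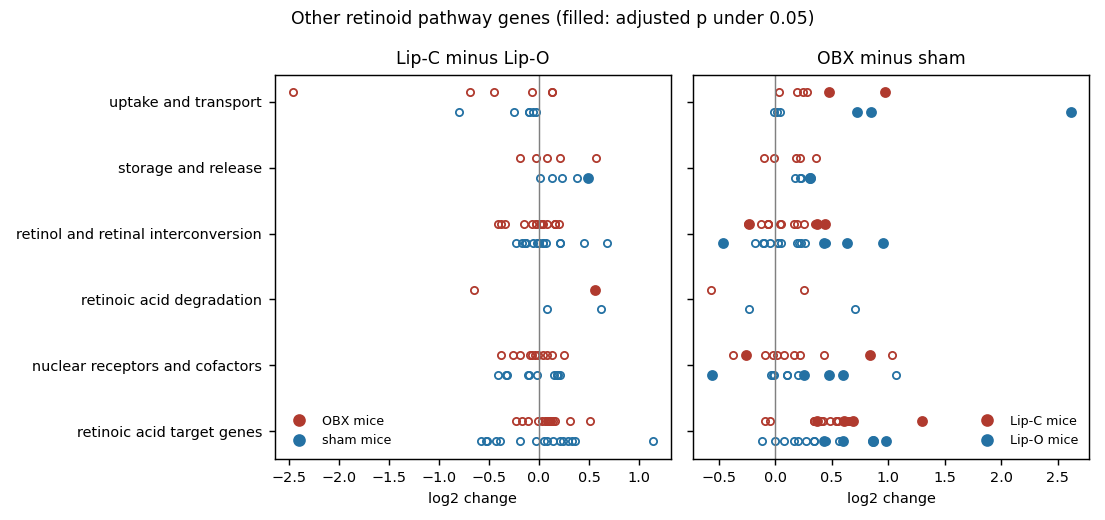
Log2 change of each tested retinoid pathway gene, by list, for Lip-C minus Lip-O (left) and OBX minus sham (right), with filled points for an adjusted p under 0.05. Filled points are few on the left (1 in each comparison) and more on the right (10 in Lip-C and 17 in Lip-O mice).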

How the data were processed

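Biotin-labelled cRNA of 12 samples was hybridised to 1-colour Affymetrix arrays, per the labels' protocols. The deposited values are linear probe set intensities that the authors had already summarised and scaled: the 2% trimmed mean is 500 on each array. How probe signals were summarised is not stated here. Of 45101 probe sets, 34945 have 1 gene in the platform annotation, 932 several and 9160 none, and 64 are controls. For each gene the brightest probe set by mean over arrays was used, kept if above the array's 40th percentile (65.3 to 79.3) on at least 3 arrays. The test used log2(signal + 16) of the scaled intensities without renormalizing, as array medians were 117.5 to 134.2. Arrays of 1 group correlated at 0.97 to 0.987. The number of arrays limits the precision.

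The 4 group means were fitted in 1 limma model (limma 3.58.1, R 4.3.3, 8 residual and 2.55 prior degrees of freedom), with Benjamini-Hochberg adjustment over 13628 genes within each comparison and a threshold of 0.05. Values of the lesser Aldh1a3 probe sets came from a separate fit, adjusted over probe sets. The fit was also run on simulated data with independent normal noise on each array. That run held no noise shared between arrays, so it cannot speak to such noise in these data. Comparisons over both surgeries or both liposomes were added after seeing the data. Comparisons of one surgery or liposome share samples with the others. The members and lists were chosen with earlier results of these data known.

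Genes named are the 9 members with every probe set, pathway genes past the threshold (at most the 10 lowest adjusted p a comparison) and Rbp4, Rdh10, Dhrs3, Lrat, Adh7, Cyp26a1, Rara, Rarg and Rxra, the 5 genes most like Crabp1 and the 5 most like Aldh1a7, and defining markers beside a result. One further gene of the rule is not reported here. Sox2, Aif1, Rarres2, Rai1 and others beyond the 10 were named after their values were seen. Same-numbered arrays deviated together more than other pairs, with a median r of 0.126 against -0.089. Not all of the 18 same-numbered pairs did (r -0.03 to 0.325, 10 over 0.1), so numbers were not taken as pairs, and a shared batch was not tested. Promoters are from RefSeq on GRCm38.p6.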

Additional observations from a re-analysis of the deposited data

How the results depend on the processing

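The count of the 7 genes passing in Lip-C against Lip-O sham mice, 1, was 0 with no filter, with probe sets of a gene averaged, with an ordinary 2x2 ANOVA and with only the groups compared, and 2 with robust eBayes, where Crabp2 passed as well (adjusted p = 0.0475). In OBX against sham Lip-C mice it was 1, and 0 with only the groups compared. Leaving out each array in turn gave 0 to 1 in Lip-C against Lip-O sham mice, 0 to 1 in OBX against sham Lip-O mice and 0 to 2 in OBX against sham Lip-C mice. The causes were not tested. Over all genes, the 283 called in Lip-C against Lip-O sham mice were 56 with no filter, 620 with robust eBayes, 79 with only the groups compared and 1449 when all probe sets were kept apart, and 17 to 317 leaving out an array, lowest without Lip-C sham replicate 3. With the replicate number as a block, the members' counts stayed at 1, 0, 0, 1 and 0 and no member's call changed, and 10 of 12 arrays correlated best with their own number. Small differences turned sign: Cyp26b1 for Lip-C in OBX mice to -0.02 and Stra6 in the interaction to -0.03 under quantile normalization, and Aldh1a3 for OBX in Lip-O mice to -0.00 under quantile normalization, -0.08 with probe sets averaged and -0.19 by another probe set, whose sister gave -0.06 in the interaction. Leaving out an array gave, for Lip-C in sham mice, -0.09 to 0.28 for Stra6, -0.14 to 0.12 for Aldh1a1, -0.06 to 0.28 for Aldh1a2 and -0.10 to 0.25 for Cyp26b1. For Lip-C in OBX mice it gave -0.06 to 0.31, -0.12 to 0.06, -0.07 to 0.23 and -0.08 to 0.11 for the same genes, and -0.05 to 0.16 for Aldh1a3 for OBX in Lip-O mice. In the interaction it gave -0.01 to 0.24 for Crabp2, -0.15 to 0.22 for Stra6, -0.16 to 0.10 for Aldh1a1, -0.23 to 0.11 for Aldh1a2 and -0.22 to 0.12 for Cyp26b1. Signals near the 40th percentile, as for Stra6 and the lesser Aldh1a3 probe sets, limit what these arrays can show.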
